A study of Mus musculus with 73 samples.

Results

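The 9 genes described here carry hormone signals in the mammary gland or mark its luminal cells. They are the receptors Esr1, Pgr and Prlr, the transcription factors Foxa1, Gata3 and Spdef, the secreted or shed ligands Areg and Tnfsf11, and the enzyme gene Aldh1a3. They were taken by symbol from a table of read counts that holds 39438 symbols, and all 9 were found. Each was followed through 73 mouse mammary tumours, of which each gave 1 RNA-sequencing library.

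The study asked what a missense variant in the coiled-coil domain of BRCA1, L1363P, which disturbs its contact with PALB2, does in mammary tumours. Mice with the genotype label KB1(L1363P)P gave 9 sarcomatoid tumours labelled as holding 0% epithelium, 9 carcinosarcomas labelled as 2% to 98% epithelial, and 3 adenocarcinomas. KP mice, which carry no Brca allele in their name, gave 3 carcinosarcomas and 5 adenocarcinomas. The remaining tumours, labelled as adenocarcinomas of 100% epithelium, were 10 titled KB1PM (whose genotype label reads KB1P), 11 KB1P and 23 KB2P. In these names K is a Cre recombinase under the keratin 14 promoter, which is active in epithelium, B1 and B2 stand for Brca1 and Brca2, and P for Trp53, so that every group shares the Cre and the Trp53 change. The ages of the mice are not used here. The 29 KB1(L1363P)P and KP libraries were all sequenced in run 5625 and the other 44 in runs with other numbers, and the KB1PM, KB1P and KB2P tumours share no run with each other, so that in every comparison with or among these 3 groups a difference by genotype and one by run cannot be told apart. The L1363P carcinosarcomas 54.1 and 54.2 share a number, and the labels do not say whether each numbered tumour came from its own animal, so that p-values measure the spread between these tumours.

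Estrogen and progesterone act in the mammary gland mainly on a minority of luminal cells that hold their receptors. These hormone-sensing cells pass the signal on to their neighbours through paracrine ligands: amphiregulin, an EGF receptor ligand, downstream of estrogen, and RANK ligand, made by Tnfsf11, downstream of progesterone. FOXA1 opens chromatin for the estrogen receptor, GATA3 keeps luminal cells differentiated, and the prolactin receptor drives milk genes through JAK2 and STAT5 in alveolar cells. Aldehyde dehydrogenase 1A3 is a marker of luminal progenitors, and SPDEF acts in secretory luminal cells.

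Library totals were 13103749 to 17550129 counts in run 5625 and 7325180 to 31615237 counts in the other runs. Brca1, set out as a check of the genotypes, had medians of 75.9, 50.2 and 40.5 CPM (counts per 1000000 counts of the library) in L1363P adenocarcinomas, carcinosarcomas and sarcomatoid tumours, 24.2 CPM in KB1PM, 31.1 CPM in KB1P and 51.9 CPM in KB2P, against 80.7 and 38.7 CPM in KP carcinosarcomas and adenocarcinomas. The KP adenocarcinomas, at 19.3 to 62.6 CPM, overlapped all of them, so that the level of Brca1 does not check the labels, and a missense variant is not tested by it. The labelled histology was checked on 10 epithelial genes, such as Epcam, Cdh1 and Cldn3. Their summed level was 6.63 to 175 CPM in sarcomatoid tumours and 1958 to 4661 CPM in L1363P adenocarcinomas. Some libraries went against their labels. The KP adenocarcinoma 90.01A held 28.3 CPM of the epithelial genes, against 1919 to 2374 CPM in the other 4 KP adenocarcinomas. The L1363P carcinosarcoma 6, labelled 95% epithelial, held 404 CPM. KB2P tumour 30 held 56.3 CPM and KB1PM tumour 8 held 260.5 CPM, both labelled 100% epithelial. The L1363P carcinosarcomas 4 and 17, low as their labels of 2% and 5% epithelium have it, held 24.8 and 17.2 CPM.

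The levels of the 9 genes overlapped widely between groups. For every gene the groups can be put in order of median level, and in 7 of 7 neighbouring pairs of that order, for each of the 9 genes, the ranges of the tumours overlapped. Tnfsf11 had the widest span of group medians, 89.9-fold between the sarcomatoid tumours and KB1P, and Esr1 the narrowest, 4.87-fold between KP adenocarcinomas and KB2P. Compared between genes per kilobase of exon, the median of KP adenocarcinomas was highest for Aldh1a3, at 11.2 CPM per kb, and lowest for Spdef, at 0.117 CPM per kb. In the sarcomatoid tumours the order differed, with Tnfsf11 highest at 9.43 CPM per kb and Spdef lowest at 0.0369 CPM per kb. Because whole tumour pieces were sequenced, fewer cells of one type and less RNA per cell cannot be told apart in any of these levels.

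**Figure D1:**
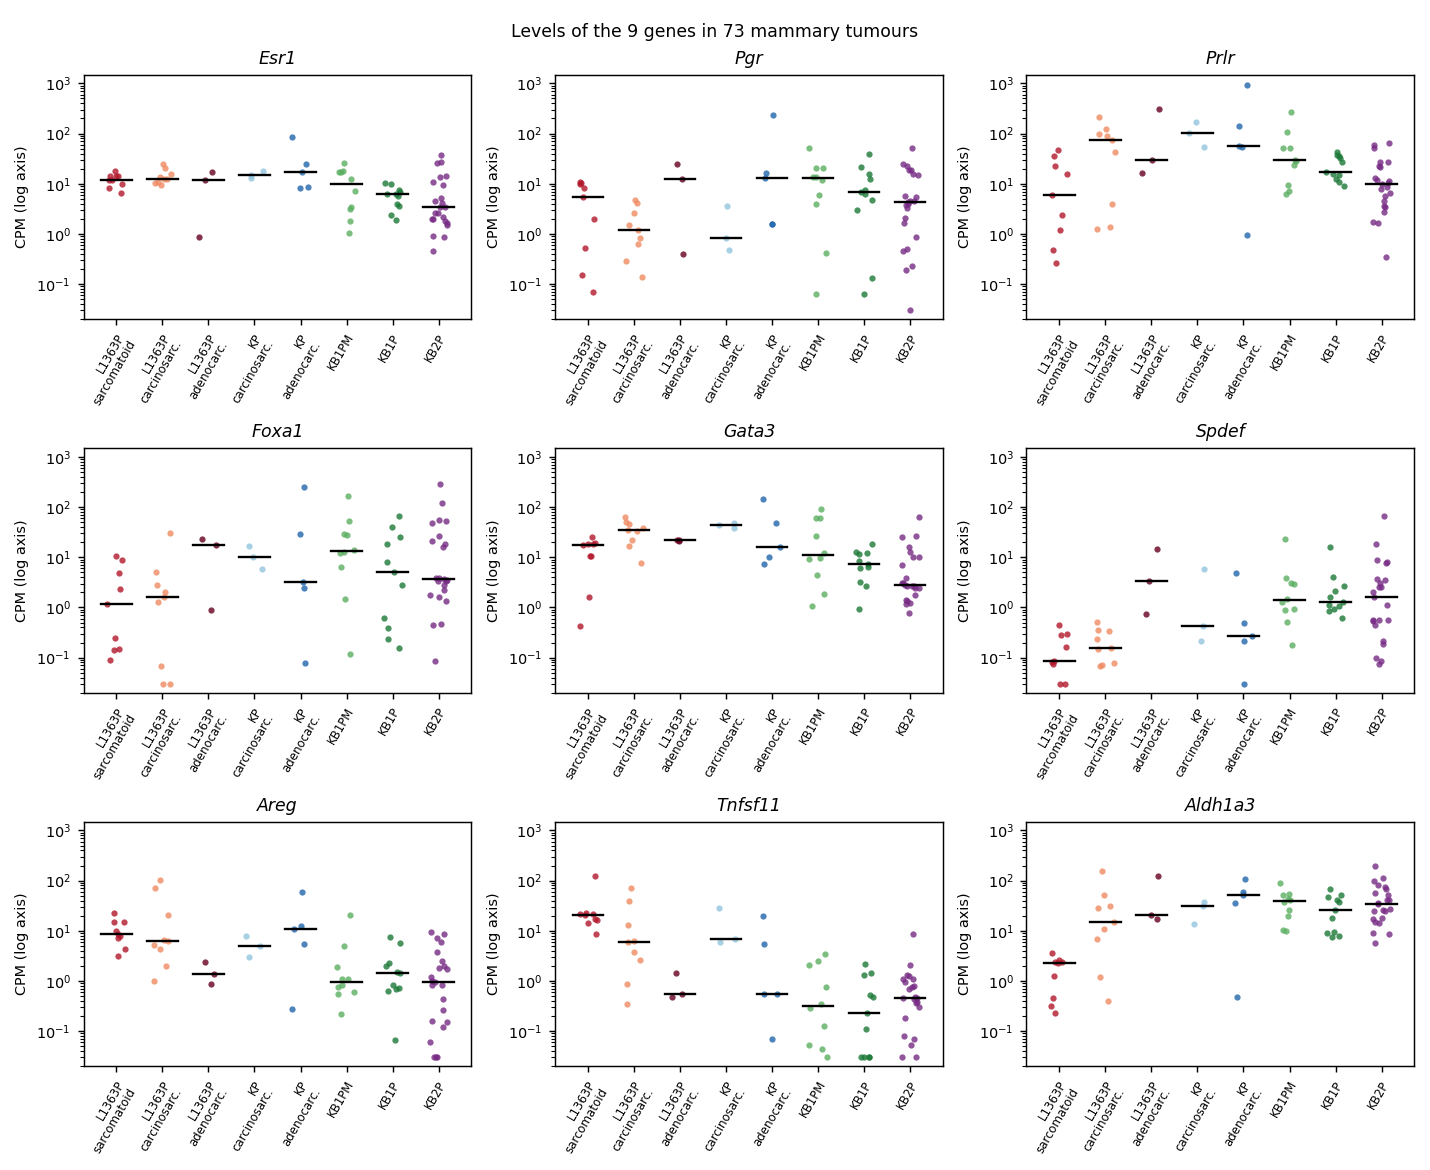
Level of each of the 9 genes in every tumour, in CPM on a log axis, by group, with a line at each group's median and tumours without a count drawn at 0.03 CPM. Tnfsf11 stands highest in the sarcomatoid tumours (median 21.1 CPM), and 1 KP adenocarcinoma stands at the top of the Esr1, Pgr, Prlr and Gata3 panels.

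Among the receptors, Esr1 (chromosome 10, 4611593 to 5005614, plus strand; GRCm38), which encodes the estrogen receptor alpha, had closely similar medians in the 3 L1363P histologies. Its lowest, median and highest levels were 6.57, 12.1 and 17.7 CPM in sarcomatoid tumours and 9.54, 12.6 and 24.4 CPM in L1363P carcinosarcomas, against 17.5, 12.1 and 0.880 CPM in L1363P adenocarcinomas 7.2, 26.2 and 52. The KP carcinosarcomas 26.02A, 130.10A and 5 had 18.1, 14.8 and 13.0 CPM, against 8.52, 16.9, 8.36, 24.2 and 84.8 CPM in KP adenocarcinomas 89.01A, 90.01A, 131.03A, 39 and 40. All sarcomatoid tumours but 1 lay within the spread of the L1363P adenocarcinomas, that 1 just above it, and 1 KP adenocarcinoma, tumour 40, lay above every other tumour. In the KB1PM, KB1P and KB2P tumours the lowest, median and highest were 1.02, 9.97 and 25.9 CPM in KB1PM, 1.88, 6.25 and 10.6 CPM in KB1P and 0.455, 3.48 and 37.6 CPM in KB2P, so that the 3 ranges overlapped.

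Pgr (chromosome 9, 8899833 to 8968611, plus strand), the progesterone receptor and a classical estrogen target, was more scattered. It ranged from 0.0698 to 10.6 CPM with a median of 5.41 CPM in sarcomatoid tumours and from 0.140 to 4.76 CPM with a median of 1.21 CPM in L1363P carcinosarcomas, against 24.4, 12.3 and 0.406 CPM in L1363P adenocarcinomas 7.2, 26.2 and 52. The adenocarcinomas 7.2 and 26.2 stood above every carcinosarcoma and tumour 52 within their range. KP carcinosarcomas had 0.485, 0.848 and 3.56 CPM, against 16.0, 1.59, 13.0, 1.60 and 236.7 CPM in KP adenocarcinomas in the order given for Esr1. The lowest, median and highest were 0.0642, 12.7 and 51.0 CPM in KB1PM, 0.0628, 6.96 and 39.9 CPM in KB1P and 0, 4.31 and 51.8 CPM in KB2P. The KB groups overlapped, and each held tumours below 1 CPM beside others above 30 CPM.

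Prlr (chromosome 15, 10177238 to 10349180, plus strand), the prolactin receptor, had the highest correlation of the 9 with epithelial genes across tumours. Its promoter window is shown because it holds a forkhead motif, the kind of sequence that FOXA1 binds, and Prlr and Foxa1 varied together. The window lies inside the gene, before an alternative start, at chr15:10223656-10223905 on the plus strand (RefSeq, GRCm38.p6), with the motif TGTTTAC in capitals.
Prlr alternative start: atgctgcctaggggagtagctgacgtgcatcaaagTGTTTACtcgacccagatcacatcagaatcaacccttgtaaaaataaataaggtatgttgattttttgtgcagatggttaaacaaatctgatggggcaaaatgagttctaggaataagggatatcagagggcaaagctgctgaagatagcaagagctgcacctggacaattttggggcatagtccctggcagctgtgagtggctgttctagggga
Of 32851 promoter windows of the same length, 3.65% hold TGTTTAC on either strand, and a match describes the letters only. Windows of 8 of the 9 genes were matched, 11 in all, and none holds the estrogen response element GGTCANNNTGACC, which 0.07% of all windows hold. The other Prlr windows hold no forkhead motif, and the window of Foxa1 itself holds 1.

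Prlr ranged from 0.268 to 46.3 CPM with a median of 5.83 CPM in sarcomatoid tumours and from 1.27 to 209.5 CPM with a median of 75.4 CPM in L1363P carcinosarcomas, against 302.2, 29.2 and 16.6 CPM in L1363P adenocarcinomas 7.2, 26.2 and 52. The sarcomatoid tumours overlapped both other groups in part. Sarcomatoid tumours 40.1, 32, 20 and 41, which had the highest Prlr among the 9, at 46.3, 36.0, 22.2 and 16.0 CPM, had summed epithelial genes of 175, 160, 86.8 and 44.8 CPM, and the part of that in their Prlr was not tested. KP carcinosarcomas had 104.1, 170.2 and 55.0 CPM, against 55.2, 0.954, 53.2, 143 and 924.9 CPM in KP adenocarcinomas. The lowest KP value belongs to 90.01A, the library with few epithelial reads. KB1PM ranged from 6.27 to 268.4 CPM (median 29.1), KB1P from 9.12 to 43.7 CPM (median 16.8) and KB2P from 0.344 to 64.2 CPM (median 9.93), again with overlap.

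Of the transcription factors, Foxa1 (chromosome 12, 57540628 to 57546916, minus strand) varied widely within groups. It ranged from 0.0892 to 10.4 CPM with a median of 1.20 CPM in sarcomatoid tumours and from 0 to 29.9 CPM with a median of 1.63 CPM in L1363P carcinosarcomas, against 17.4, 22.8 and 0.880 CPM in L1363P adenocarcinomas 7.2, 26.2 and 52. The adenocarcinoma 52 thus lay among the sarcomatoid tumours, and carcinosarcomas 4 and 17, the 2 with the least epithelium, had no Foxa1 count. KP carcinosarcomas had 5.82, 17.0 and 10.1 CPM, against 2.49, 0.0795, 29.4, 3.27 and 246.7 CPM in KP adenocarcinomas. KB1PM ranged from 0.118 to 166.7 CPM (median 13.1), KB1P from 0.153 to 65.4 CPM (median 5.12) and KB2P from 0.0859 to 289.6 CPM (median 3.64), so that each KB group held tumours below 1 CPM and others above 30 CPM.

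Gata3 (chromosome 2, 9857078 to 9890034, minus strand) had a narrower spread in the run 5625 tumours than Foxa1. It ranged from 0.419 to 25.7 CPM with a median of 17.6 CPM in sarcomatoid tumours and from 7.61 to 64.1 CPM with a median of 35.1 CPM in L1363P carcinosarcomas. The L1363P adenocarcinomas had 21.8, 22.6 and 21.4 CPM, the least scattered of any member in that group relative to the mean. Carcinosarcomas of KP mice had 39.1, 44.9 and 47.4 CPM, against 7.27, 16.3, 10.2, 49.3 and 145.7 CPM in KP adenocarcinomas. GATA3 is also made by T cells and innate lymphoid cells, and the summed 11 genes of that list were 249 to 3474 CPM in sarcomatoid tumours and 97.4 to 117 CPM in L1363P adenocarcinomas, of which Il1rl1 made up 220 to 3371 CPM in sarcomatoid tumours and 2.62 to 40.7 CPM in adenocarcinomas. Without Il1rl1 the list summed to 11.2 to 102 CPM in sarcomatoid tumours and 56.7 to 115 CPM in L1363P adenocarcinomas. With the mean of each group and run subtracted, Gata3 had r = 0.11 and rho = 0.12 with this shortened list (permutation adjusted p = 0.651 and 0.557). The part of such cells in the Gata3 differences between groups was not tested. KB1PM ranged from 1.06 to 93.5 CPM (median 11.0), KB1P from 0.938 to 18.6 CPM (median 7.35) and KB2P from 0.781 to 63.9 CPM (median 2.84). An annotated antisense gene shares 155 exonic bases with Gata3, and whether reads were counted by strand is not stated in the sources used here.

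Spdef (chromosome 17, 27714352 to 27728955, minus strand), a luminal and secretory-cell transcription factor, was low in almost all tumours. It was counted only 19 times over the 9 sarcomatoid tumours (0 to 0.453 CPM, median 0.0851) and 27 times over the 9 L1363P carcinosarcomas (0.0678 to 0.508 CPM, median 0.159), against 300 counts over the 3 L1363P adenocarcinomas, at 14.6, 3.32 and 0.744 CPM for 7.2, 26.2 and 52. All 18 sarcomatoid tumours and carcinosarcomas stood below all 3 adenocarcinomas. How many of all genes separate groups of these sizes so was not counted, here or for Areg, Tnfsf11 and Aldh1a3 below. KP carcinosarcomas had 5.82, 0.424 and 0.214 CPM, against 0.485, 0, 0.270, 0.218 and 4.84 CPM in KP adenocarcinomas. KB1PM ranged from 0.177 to 23.1 CPM (median 1.39), KB1P from 0.618 to 15.8 CPM (median 1.26) and KB2P from 0.0732 to 65.1 CPM (median 1.62).

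The ligands Areg and Tnfsf11 had higher medians in sarcomatoid tumours than in L1363P adenocarcinomas. Areg (chromosome 5, 91139599 to 91148432, plus strand) encodes amphiregulin. Tnfsf11 (chromosome 14, 78277445 to 78308043, minus strand) encodes RANK ligand, which T cells and bone-forming cells also make. Their promoter windows are printed together, since both genes encode ligands and their windows differ in a motif: the Areg window at chr5:91139349-91139598 on the plus strand holds a cAMP response element in capitals, TGACGTCA, starting 61 bases before the start, and the Tnfsf11 window at chr14:78308044-78308293 on the minus strand holds none of the 4 motifs searched (both from RefSeq, GRCm38.p6, read 5′ to 3′ toward the start).
Areg promoter: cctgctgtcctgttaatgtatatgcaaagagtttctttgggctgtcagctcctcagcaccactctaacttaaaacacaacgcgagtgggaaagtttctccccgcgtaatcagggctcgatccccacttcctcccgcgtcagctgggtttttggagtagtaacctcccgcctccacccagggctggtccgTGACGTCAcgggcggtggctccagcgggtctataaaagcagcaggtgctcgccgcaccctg
Tnfsf11 promoter: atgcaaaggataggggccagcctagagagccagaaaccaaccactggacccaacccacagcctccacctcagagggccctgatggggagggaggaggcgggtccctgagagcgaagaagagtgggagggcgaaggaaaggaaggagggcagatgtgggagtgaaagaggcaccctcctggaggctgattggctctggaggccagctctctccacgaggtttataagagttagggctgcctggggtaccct
TGACGTCA is in 1.79% of the 32851 windows on either strand. The other motifs searched were AGATAA, which GATA factors bind and 11.2% of windows hold, and the forkhead and estrogen response elements given above.

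Areg ranged from 3.17 to 22.3 CPM with a median of 8.60 CPM in sarcomatoid tumours and from 1.02 to 101.9 CPM with a median of 6.30 CPM in L1363P carcinosarcomas, against 0.863, 2.37 and 1.35 CPM in L1363P adenocarcinomas 7.2, 26.2 and 52. Every sarcomatoid tumour stood above all 3 adenocarcinomas. KP carcinosarcomas had 7.83, 3.04 and 5.06 CPM, against 0.277, 10.8, 12.6, 5.38 and 58.7 CPM in KP adenocarcinomas. KB1PM ranged from 0.221 to 20.9 CPM (median 0.960), KB1P from 0.0658 to 7.68 CPM (median 1.47) and KB2P from 0 to 9.50 CPM (median 0.963), so that the 3 KB groups lay low together.

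Tnfsf11 ranged from 8.58 to 125.1 CPM with a median of 21.1 CPM in sarcomatoid tumours and from 0.349 to 72.6 CPM with a median of 5.90 CPM in L1363P carcinosarcomas, against 0.555, 1.47 and 0.474 CPM in L1363P adenocarcinomas. All 9 sarcomatoid tumours lay above the adenocarcinomas. KP carcinosarcomas had 6.86, 5.86 and 29.1 CPM, against 0.0693, 19.8, 0.539, 5.38 and 0.546 CPM in KP adenocarcinomas. The 19.8 CPM belong to 90.01A, the KP library with few epithelial reads. In the KB groups Tnfsf11 was low: the lowest, median and highest were 0, 0.318 and 3.47 CPM in KB1PM, 0, 0.235 and 2.20 CPM in KB1P and 0, 0.456 and 8.71 CPM in KB2P, with no count in 1, 4 and 2 tumours of those groups.

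Aldh1a3 (chromosome 7, 66390890 to 66427517, minus strand), which makes retinoic acid from retinal and marks luminal progenitor cells, separated the sarcomatoid tumours from most of the others. It ranged from 0.226 to 3.61 CPM with a median of 2.24 CPM in sarcomatoid tumours and from 0.398 to 152.3 CPM with a median of 15.2 CPM in L1363P carcinosarcomas, against 16.9, 20.6 and 122.4 CPM in L1363P adenocarcinomas. All 9 sarcomatoid tumours lay below the adenocarcinomas. KP carcinosarcomas had 30.8, 37.6 and 13.97 CPM, against 58.3, 0.477, 110, 35.2 and 51.5 CPM in KP adenocarcinomas. The L1363P carcinosarcomas 4 and 17, at 0.398 and 1.19 CPM, and the KP adenocarcinoma 90.01A, at 0.477 CPM, lay within the sarcomatoid range. All of these held few epithelial reads, as did KB2P tumour 30, which had 18.0 CPM of Aldh1a3. KB1PM ranged from 10.0 to 88.7 CPM (median 38.9), KB1P from 7.70 to 68.0 CPM (median 25.9) and KB2P from 5.78 to 197.8 CPM (median 34.2), so that no KB tumour came down to the level of the sarcomatoid tumours.

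**Figure D2:**
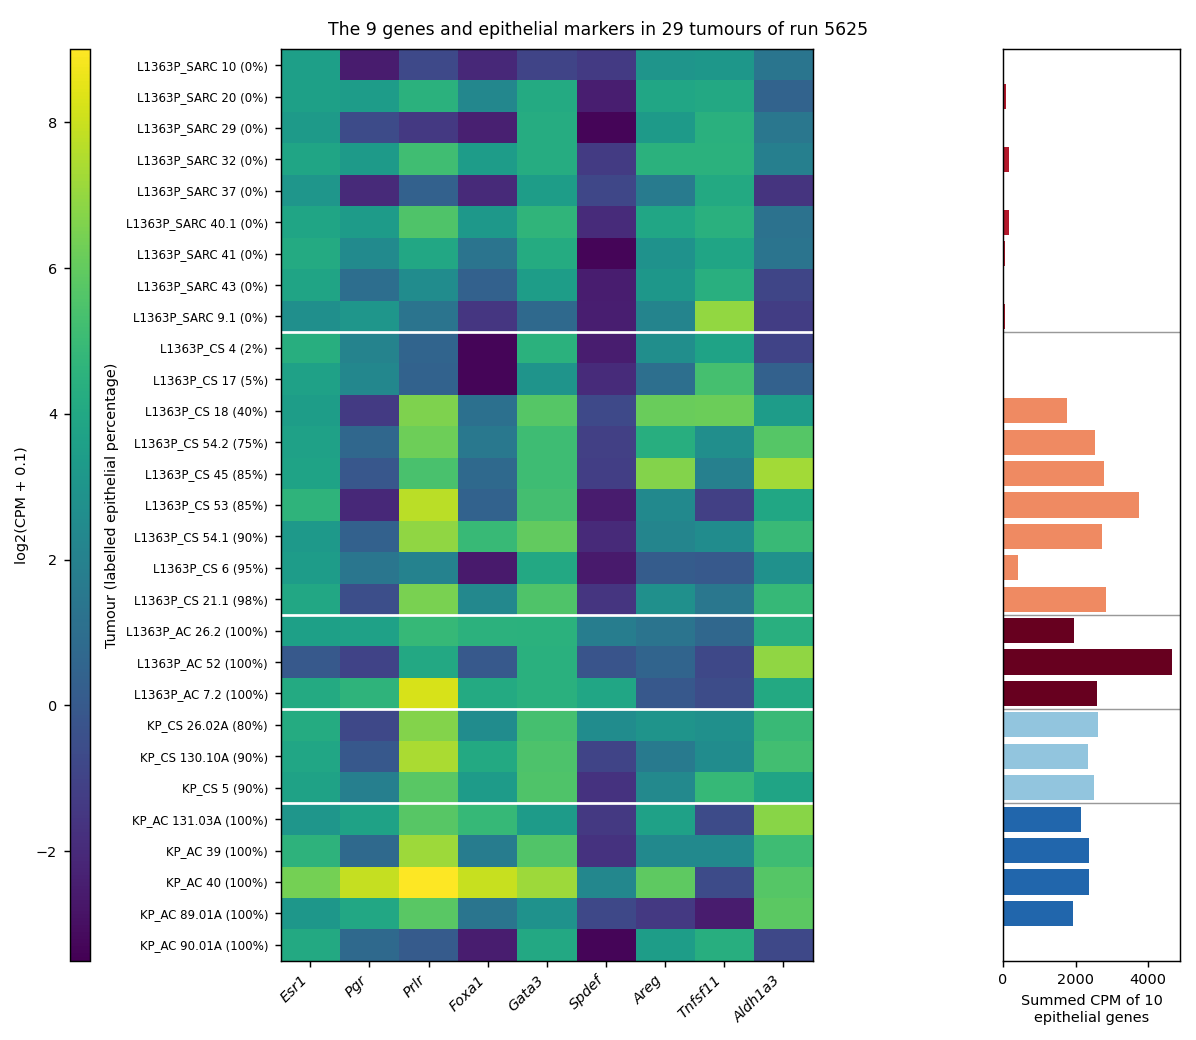
Colour map of log2(CPM + 0.1) of the 9 genes in the 29 tumours of run 5625, ordered by group and labelled epithelial percentage, with bars of the summed CPM of 10 epithelial genes. Dark colours are low: the Spdef column is dark in all sarcomatoid rows and the Aldh1a3 column is darker there than in the adenocarcinoma rows of L1363P mice, while the KP adenocarcinoma 90.01A has an epithelial bar of only 28.3 CPM.

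Sarcomatoid against adenocarcinoma, within L1363P, asks how the genes differ between tumours without and with epithelial growth. Spdef and Aldh1a3 fell and Tnfsf11 rose in sarcomatoid tumours, the 3 of 9 genes that passed the test (edgeR's quasi-likelihood test, adjusted with Benjamini-Hochberg over 16147 genes, threshold 0.05), while 30.6% of all genes tested passed it. Spdef fell by 5.23 ± 1.01 on the log2 scale (SE; edgeR adjusted p = 0.000658), Aldh1a3 fell by 5.01 ± 1.04 (edgeR adjusted p = 0.00115), and Tnfsf11 was higher by 5.08 ± 1.66 (edgeR adjusted p = 0.0222; n = 9 and 3). Areg was higher by 2.68 ± 1.27 and did not pass the test (edgeR adjusted p = 0.109). Its groups did not overlap, nor did those of Spdef, Aldh1a3 and Tnfsf11, and how many of all genes separate so was not counted. The hormone receptors and the remaining factors did not pass it: Prlr was at -3.04 ± 1.27, Foxa1 at -2.20 ± 1.46, Pgr at -1.29 ± 1.19, Gata3 at -0.76 ± 0.75 and Esr1 at 0.19 ± 0.57, with edgeR adjusted p of 0.0692, 0.254, 0.421, 0.459 and 0.827 in that order. The median over the 9 genes was -1.29, beside -0.09 over all genes tested. With any 1 of the 3 adenocarcinomas left out, 2 of the 9 genes passed: Tnfsf11 was lost, at 4.81 to 5.78 with edgeR adjusted p of 0.0644 to 0.0805.

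The genes around the members moved in both directions, and their counts stand beside the 30.6% of all genes tested that passed in this comparison. Of 14 tested hormone-sensing luminal genes, 0 rose and 4 fell, a share near that of all genes, with a median of -2.27 on the log2 scale. Myb at -5.69 ± 0.88, Krt8 at -3.93 ± 0.75 and Krt18 at -3.33 ± 0.74 had the smallest edgeR adjusted p, from 0.000135 to 0.00196, and the keratins are general luminal genes. Of 15 luminal progenitor and alveolar genes, 0 rose and 7 fell (median -2.21), led by Sox10 at -7.07, Kit at -3.99 and Wfdc18 at -7.12. Of 11 genes of prolactin and STAT5 signalling, 1 rose and 4 fell (median -0.67): Elf5, the alveolar factor downstream of the prolactin receptor, was at -5.93 and Id2 at -1.94, while Socs3, an inhibitor of JAK-STAT signalling, was at 1.26. Of 15 nuclear receptors and coregulators, 2 rose and 7 fell (median -0.41), with the coregulators Nrip1 at -1.76 and Ncoa1 at -1.46 and the orphan receptor Nr2f2 at 2.14. The prolactin list shares Elf5 with the progenitor list and Id2 with the RANK list.

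For the receptor of RANK ligand, Tnfrsf11a, the sarcomatoid tumours held 54.2 to 229 CPM, against 14.3 to 47.6 CPM in the adenocarcinomas. It was higher by 1.62 ± 0.47 (edgeR adjusted p = 0.0123), and of the 8 RANK signalling genes it was the 1 that rose while 2 fell, Lgr4 at -2.97 and Id2. Of 13 EGF receptor ligands and receptors, 3 rose and 4 fell (median -0.20). Among the fallers were Nrg2 at -5.65, Tgfa at -5.04 and Erbb3 at -5.18. The 3 that rose, named after their values were seen, were Ereg at 5.85, Epgn at 4.82 and Hbegf at 2.45. These 3 are ligands of the EGF receptor as Areg and Tgfa are, so that such ligands went both ways. Of 15 retinoic acid pathway genes, 0 rose and 4 fell (median -0.73), again a share near that of all genes tested. Among them were Rxra at -1.03, Aldh1a1, a further retinal dehydrogenase, at -5.83 and the retinol transporter Stra6 at -5.06. Of 12 tested paralogs of the transcription factors, 3 rose and 5 fell, with Etv6 at -2.06, Elf3 at -6.37 and Foxa3 at -5.80.

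Markers of other cells moved with these groups. All 10 epithelial and all 8 basal genes fell, 9 of 12 mesenchymal and all 7 macrophage genes rose, and 1 of 11 tested T cell and innate lymphoid genes rose (Il1rl1, at 6.44) while 2 fell. Macrophage genes summed to 3840 to 7418 CPM in sarcomatoid tumours and 609 to 1138 CPM in adenocarcinomas, and mesenchymal genes to 13126 to 25721 CPM in sarcomatoid tumours and 2064 to 3753 CPM in adenocarcinomas. The T cell chains Cd3d, Cd3e and Cd3g together were at 1.06 to 24.8 CPM in sarcomatoid tumours and 0.511 to 8.51 CPM in adenocarcinomas. No gene of these lists was at 0 in every tumour of either group, and the part of these cells in the changes of Spdef, Aldh1a3 and Tnfsf11 was not tested.

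Sarcomatoid against carcinosarcoma, within L1363P, sets the 2 non-adenocarcinoma classes against each other. Aldh1a3 fell by 4.31 ± 0.90 (edgeR adjusted p = 0.00191) and was the 1 gene of 9 to pass, with 21.5% of all genes tested passing. Gata3, at -1.43 (edgeR adjusted p = 0.0679), Prlr, at -2.38 (edgeR adjusted p = 0.10), Areg, at -1.29 (edgeR adjusted p = 0.220), and Pgr, at 1.53 (edgeR adjusted p = 0.237), did not. Neither did Tnfsf11, at 0.85 (edgeR adjusted p = 0.479), which passed in 1 of 25 alternative settings. Without carcinosarcomas 4 and 17 and the KP adenocarcinoma 90.01A, Gata3, at -1.61 (edgeR adjusted p = 0.0268), and Prlr, at -2.69 (edgeR adjusted p = 0.0213), passed as well. Then 3 of 9 passed, in a fit where 5994 of all genes did, in place of 3468. Around the members, 7 of 11 prolactin and STAT5 genes fell and 0 rose, with Socs2 at -2.97, Cish at -1.22 and Elf5 at -5.14, and 9 of 15 luminal progenitor and alveolar genes fell and 0 rose. Of the hormone-sensing genes 1 rose and 6 fell, of the EGF receptor list 0 rose and 4 fell, of the retinoic acid list 1 rose and 3 fell, and of the RANK list 1 rose and 2 fell.

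Carcinosarcoma against adenocarcinoma, within L1363P, uses the same 3 adenocarcinomas as the first comparison. Spdef fell by 4.77 ± 0.99 (edgeR adjusted p = 0.00913), where 2.70% of all genes tested passed. It stood below the adenocarcinomas in 9 of 9 carcinosarcomas, and how many of all genes do so was not counted. Areg at 3.97, Tnfsf11 at 4.22 and Pgr at -2.83 missed the threshold with edgeR adjusted p of 0.111, 0.138 and 0.174. Aldh1a3, at -0.70, and Prlr, at -0.66, had edgeR adjusted p of 0.744 and 0.812. Without the adenocarcinoma 7.2, which has the highest Spdef of the 3, the Spdef call was lost, at -3.21 (edgeR adjusted p = 0.0975). It was also lost with only the carcinosarcomas of at least 75% epithelium, and held in 17 of 19 alternatives. Of the surrounding lists, 1 gene fell in the hormone-sensing list (Myb, at -2.99), 1 rose in the prolactin list (Socs3, at 1.44) and 1 fell in the retinoic acid list (Rxra, at -0.83), and 0 passed in the RANK, EGF receptor and luminal progenitor lists.

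Within the 9 carcinosarcomas the labelled epithelial percentage ran from 2% to 98%, and its slope asks whether the genes follow it. None of the 8 members tested (Spdef had too few counts) passed with edgeR, where 8.34% of 14645 genes did. Aldh1a3 had a slope of 0.64 ± 0.19 log2 units per 10 percentage points (edgeR adjusted p = 0.0713), and Tnfsf11 ran downward, at -0.52 ± 0.16 (edgeR adjusted p = 0.0759). Foxa1, at 0.69, and Prlr, at 0.44, had edgeR adjusted p of 0.140 and 0.272, while the slopes of Esr1 and Areg were -0.01 and 0.07. DESeq2 called 4 of the 8, with 2977 of all genes in place of 1222, and limma called 1 of the 8. Carcinosarcoma 6 had 4.00 CPM of Prlr and a low epithelial sum for its label of 95%. Without it, a leave-out added after seeing the data, Aldh1a3, at 0.69 (edgeR adjusted p = 0.0255), and Foxa1, at 0.73 (edgeR adjusted p = 0.0492), passed. Without carcinosarcoma 18, Tnfsf11 passed, at -0.37 (edgeR adjusted p = 0.0417). Without carcinosarcoma 17, none did, and Aldh1a3 was at 0.61 (edgeR adjusted p = 0.335) and Tnfsf11 at -0.61 (edgeR adjusted p = 0.201), while 100 of all genes passed in place of 1222. Of the neighbouring lists, 4 luminal progenitor and alveolar genes rose with the percentage (among them the milk genes Wap at 0.95, Lalba at 0.94 and Csn2 at 1.26), and all 7 macrophage and 4 of 12 mesenchymal genes fell.

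**Figure D3:**
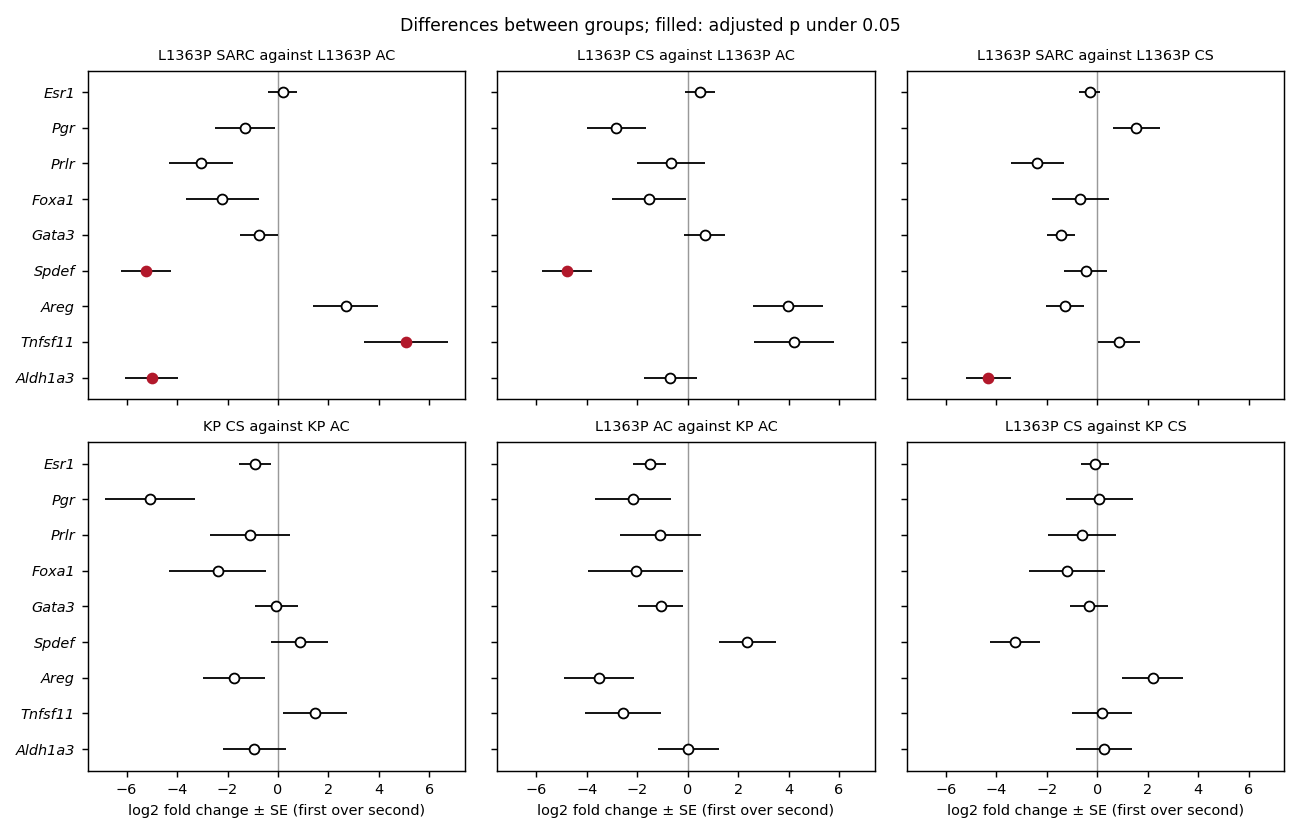
Log2 fold change with its standard error for the 9 genes in 6 comparisons of run 5625, the first-named group over the second, filled where the edgeR adjusted p is below 0.05. Spdef, Aldh1a3 and Tnfsf11 carry the filled points, and the 3 panels that hold KP tumours have none.

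In KP tumours, carcinosarcoma against adenocarcinoma gave no member past the threshold with edgeR, nor any gene (0.00% of those tested), while 1926 genes had an unadjusted p under 0.05, DESeq2 called 184 and limma 1. Pgr was at -5.07 ± 1.79 (edgeR adjusted p = 0.344), Foxa1 at -2.39, Areg at -1.74 and Tnfsf11 at 1.47. Without the KP adenocarcinoma 40, Pgr was at -2.34 (edgeR adjusted p = 0.545), Areg at -0.45 and Foxa1 at 0.26, on the other side of 0. Without 90.01A, Tnfsf11 was at 3.08 (edgeR adjusted p = 0.349). The L1363P and KP effects of carcinosarcoma against adenocarcinoma differed by 5.71 for Areg (edgeR adjusted p = 0.201) and by -5.63 for Spdef (edgeR adjusted p = 0.163), and no member passed the interaction test, which 0.0124% of genes did.

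Between genotypes at the same histology, no member passed with edgeR. In adenocarcinomas of L1363P mice against KP mice, where 0.211% of genes passed, Areg was at -3.52 (edgeR adjusted p = 0.235), Tnfsf11 at -2.56, Spdef at 2.37, Pgr at -2.16, Foxa1 at -2.07 and Esr1 at -1.50 (edgeR adjusted p = 0.272). Without the KP adenocarcinoma 40, Pgr and Foxa1 changed sign, at 0.57 and 0.58, Esr1 was at -0.50, Areg at -2.22 and Spdef at 4.57 (edgeR adjusted p = 0.108). Without 90.01A, Tnfsf11 was at -0.95 (edgeR adjusted p = 0.833). In carcinosarcomas of L1363P mice against KP mice, 0.00% of genes passed with edgeR, 741 had an unadjusted p under 0.05, DESeq2 called 6 and limma 0. Spdef, at -3.26 ± 0.99, and Areg, at 2.19, had an edgeR adjusted p of 0.935 each. With 3 to 5 tumours in the smaller groups, these p-values do not show that the genotypes had the same levels.

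KP adenocarcinomas had higher levels of 4 of the 9 genes than KB1P and KB1PM tumours, and of 6 than KB2P tumours, in the fit of 73 libraries, but the calls rested on single tumours. The 2 comparisons share the KP tumours. Against the mean of KB1P and KB1PM, Prlr was higher by 2.67 (edgeR adjusted p = 0.00555), Areg by 2.70 (edgeR adjusted p = 0.00774), Tnfsf11 by 2.74 (edgeR adjusted p = 0.00898) and Esr1 by 1.82 (edgeR adjusted p = 0.0105), so 4 of 9 passed, all higher, where 27.3% of 18492 genes passed and 2769 of them were higher. With limma on the deposited log2 values 0 of 9 passed, with Prlr at 1.06 (limma adjusted p = 0.469), Areg at 2.31 (limma adjusted p = 0.0597), Tnfsf11 at 1.89 (limma adjusted p = 0.116) and Esr1 at 1.62 (limma adjusted p = 0.0501). Against KB2P, 6 of 9 passed, all higher, where 35.3% of genes did and 17.2% were higher: Prlr at 3.79 (edgeR adjusted p = 2.9e-05), Areg at 2.98, Gata3 at 2.29, Esr1 at 1.82, Pgr at 2.50 and Tnfsf11 at 2.34, with edgeR adjusted p of at most 0.0202. Foxa1, Spdef and Aldh1a3 passed in neither comparison. The same 6 genes passed without KB2P tumour 30 and the same 4 without KB1PM tumour 8, the KB libraries low in epithelial genes for their label (left out after seeing the data). In these comparisons the 7 macrophage genes all rose, as did 5 of 6 mast cell genes, with 7 of 12 mesenchymal genes rising against KB1P and KB1PM and 6 against KB2P; their part in the differences was not tested, and run and genotype cannot be told apart.

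Tumour 40 of the KP adenocarcinomas carried much of these differences; it was singled out after its values were seen. It ranked 1st of 73 for Esr1, Pgr, Prlr and Gata3, with rank 2 for Foxa1, 3 for Areg, 10 for Spdef, 17 for Aldh1a3 and 42 for Tnfsf11. It held 88.0% of the summed Pgr level of the 5 KP adenocarcinomas, 87.5% of Foxa1, 78.6% of Prlr and 59.4% of Esr1. Its ratio to the median of the other 4 was 85.6 for Foxa1, 32.4 for Pgr, 17.1 for Prlr and 6.66 for Esr1. Of the 16 hormone-sensing genes it stood above the other 4 tumours for 9 and below them for 0, and it was the highest of 73 for 4: Cited1 at 150 CPM, against 0.477 to 2.70 CPM in the others, Stc2 at 580 CPM, against 11.0 to 20.4 CPM, Krt19 at 1518 CPM, against 1.21 to 130 CPM, and Wnt4 at 41.1 CPM, against 0.556 to 30.0 CPM. For what share of all genes tumour 40 stood above the other 4, or highest of 73, was not counted. Wnt4 is a progesterone target, and the estrogen target Greb1 was at 0.468 CPM, rank 60. Its summed epithelial genes, 2358 CPM, were within the 28.3 to 2374 CPM of the others, and of the luminal progenitor and alveolar genes it stood above or below the others for 0.

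Without tumour 40, the KP adenocarcinomas differed from the mean of KB1P and KB1PM for Tnfsf11, at 3.08 (edgeR adjusted p = 0.00584), and Spdef, at -3.71 (edgeR adjusted p = 0.0455), and from KB2P for Tnfsf11, at 2.70 (edgeR adjusted p = 0.0122), and Spdef, at -4.49 (edgeR adjusted p = 0.0154), and for none of the others. Against KB2P, Prlr was then at 1.94 (edgeR adjusted p = 0.0579), Areg at 1.74, Gata3 at 1.19, Esr1 at 0.88 and Pgr at -0.18, so that Pgr turned its direction. The Tnfsf11 difference in turn was lost without 90.01A, the library low in epithelium, where it came to 1.14 against KB1P and KB1PM (edgeR adjusted p = 0.438) and 0.76 against KB2P (edgeR adjusted p = 0.589).

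**Figure D4:**
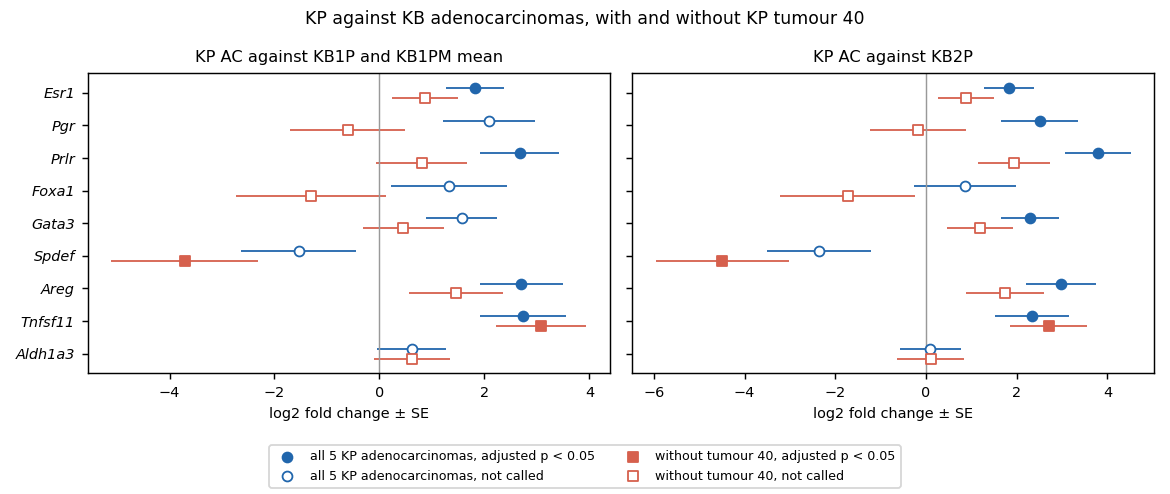
Log2 fold change of the 9 genes in KP adenocarcinomas over the mean of KB1P and KB1PM and over KB2P, with all 5 KP adenocarcinomas and without tumour 40. Against KB2P, Prlr is at 3.79 with tumour 40 and 1.94 without it, and Pgr at 2.50 and -0.18.

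L1363P adenocarcinomas were set against the same KB tumours. Against the mean of KB1P and KB1PM, 0 of 9 members passed with edgeR, where 5.00% of genes did, and Prlr, at 1.63, came nearest (edgeR adjusted p = 0.375). Against KB2P, Prlr was higher by 2.75 ± 0.86 (edgeR adjusted p = 0.0304) and was the 1 member to pass, where 9.10% of genes did. The call was lost without the adenocarcinoma 7.2, which has 302.2 CPM of Prlr, where the value was 0.45 (edgeR adjusted p = 0.874). It was also lost with DESeq2, at 2.72 (DESeq2 adjusted p = 0.0503), and with limma on the deposited log2 values, at 2.49 (limma adjusted p = 0.220). Run and genotype cannot be told apart here either. The growth hormone receptor Ghr, a relative of Prlr in the prolactin list, was higher by 2.11 in the same comparison.

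Among the KB tumours, no member passed. KB1P and KB1PM against KB2P, where 13.2% of genes passed, gave Prlr at 1.12 (edgeR adjusted p = 0.156) as the nearest, and KB1PM against KB1P, where 0.887% did, gave Gata3 at 1.74 (edgeR adjusted p = 0.231). Within KB2P, the tumours of run 2749 against those of run 2459, where 1.01% of genes passed, gave Gata3 at 2.55 (edgeR adjusted p = 0.0560) and Foxa1 at -2.60 (edgeR adjusted p = 0.152).

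Within group and run, 6 pairs of the 9 genes varied together. Levels were set to log2 CPM, the mean of each group and run was subtracted, and 36 pairs were correlated over the 73 tumours, with 100000 two-sided permutations within group and run and Benjamini-Hochberg adjustment over the 36. Of these, 30 were positive and 6 passed for both Pearson's r and Spearman's rho, all positive. Subtracting these means leaves in the differences in epithelial content between tumours of a group. Of the genes in these pairs, Prlr, Foxa1 and Gata3 followed the summed epithelial genes, as given below, while Spdef, Areg and Tnfsf11 did not pass for both measures. The part of epithelial content in the pairs was not tested. Prlr and Foxa1 had r = 0.61 and rho = 0.60 (permutation p = 1e-05 each, the smallest these permutations can give; adjusted p = 0.00018 and 0.00024), r = 0.55 without the 2 tumours farthest in Prlr, r = 0.87 in run 5625 and 0.37 in the other runs. Foxa1 and Spdef had r = 0.55 and rho = 0.55, r = 0.45 in run 5625 and 0.60 in the other runs. Prlr and Gata3 had r = 0.54 and rho = 0.54, r = 0.60 in run 5625 and 0.53 in the other runs. The adjusted p of both pairs were at most 0.00024 by these permutations, and r was 0.51 and 0.53 without the 2 tumours farthest in the first-named gene.

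The other 3 pairs were weaker. Prlr and Spdef had r = 0.39 and rho = 0.43 (permutation adjusted p = 0.00396 and 0.00306), Foxa1 and Gata3 had r = 0.36 and rho = 0.35 (permutation adjusted p = 0.0239 and 0.0398), and Areg and Tnfsf11 had r = 0.36 and rho = 0.35 (permutation adjusted p = 0.0430 and 0.0419). Within runs, Foxa1 and Gata3 had r = 0.58 in run 5625 and 0.23 in the others, and Areg and Tnfsf11 0.27 and 0.44. Esr1 and Pgr, a receptor and its classical target, had r = 0.36, which passed for r (permutation adjusted p = 0.0457) and not for rho (permutation adjusted p = 0.0673). With the tumours of run 5625 alone 3 pairs passed for both measures (Prlr with Foxa1 and with Gata3, and Foxa1 with Gata3), and with the other runs alone 1 did (Foxa1 with Spdef), so that Areg and Tnfsf11 passed in neither. With a prior count of 8 in place of 2, Foxa1 with Gata3 and Areg with Tnfsf11 no longer passed for both, and 4 pairs did.

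**Figure D5:**
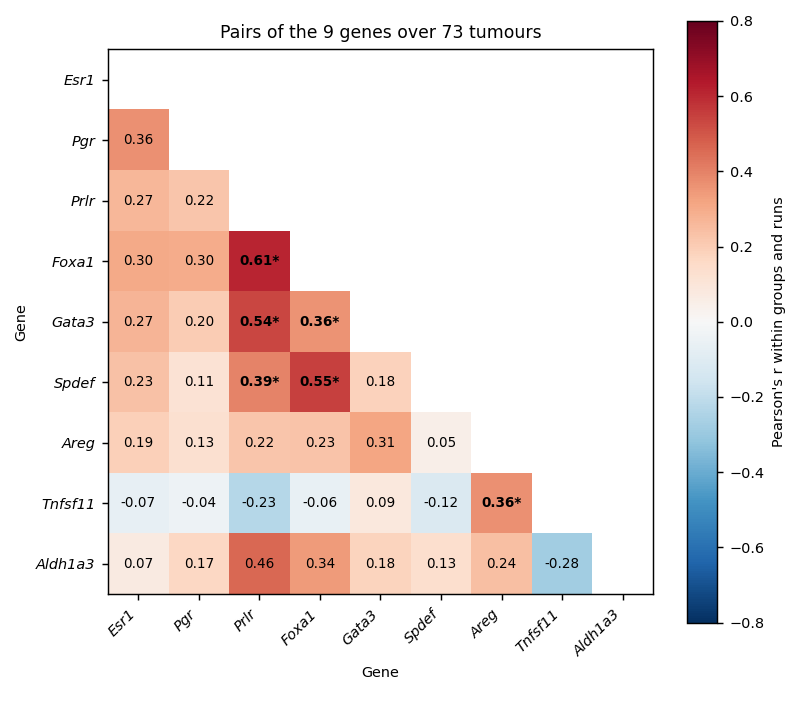
Pearson correlation of each of the 36 pairs of the 9 genes over 73 tumours, on log2 CPM after subtracting the mean of each group and run, with a star where both r and rho passed at an adjusted p of 0.05. The 6 stars lie among Prlr, Foxa1, Gata3 and Spdef, with 1 for Areg and Tnfsf11, and Prlr with Foxa1 has the highest r, 0.61.

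Some members also followed cell type markers within group and run; these 27 relations were added after seeing the data. Prlr had r = 0.72 and rho = 0.55 with the summed epithelial genes (permutation adjusted p = 0.000135 and 0.00108; r = 0.64 without the 2 tumours farthest in Prlr, 0.86 in run 5625 and 0.39 in the others). Aldh1a3 had r = 0.59 and rho = 0.41 (permutation adjusted p = 0.0045 and 0.0139), with r = 0.81 in run 5625 and 0.03 in the other runs. Foxa1 had r = 0.51 and rho = 0.45 with the epithelial genes, and Gata3 r = 0.40 and rho = 0.31. Tnfsf11 went with the 7 macrophage genes, at r = 0.58 and rho = 0.42 (permutation adjusted p = 0.00018 and 0.0114), with r = 0.65 in run 5625 and 0.51 in the others. With the epithelial genes it had r = -0.13 over all tumours, with opposite signs by run: -0.43 in run 5625 and 0.40 in the others. With the remaining list, the T cell and innate lymphoid genes without Il1rl1, no member passed, and Tnfsf11 came nearest (r = 0.21, permutation adjusted p = 0.178). Esr1 and Pgr passed with none of the 3 lists.

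The genes most like each member, by Pearson's r over the 73 tumours and 12168 genes on the same centred scale, are a description. For Prlr they were Tmprss2 (r = 0.80), Kcnk1 (0.79) and Elf5 (0.79), for Foxa1 Wfdc2 (0.65), Ly6d (0.64) and Plekha6 (0.63), and for Esr1 Tnfrsf21 (0.61), Ppp1r9a (0.60) and Ltbp1 (0.58). For Pgr they were Rai2 (0.59), Grb14 (0.55) and Ccn5 (0.54), and for Tnfsf11 Mefv (0.73), Pik3r5 (0.73) and Gpr132 (0.71). Aldh1a3 had Fermt1, Tfap2c and Eps8l2 (0.65 to 0.66 over all tumours), whose r in the runs other than 5625 was 0.22, 0.04 and 0.29. The nearest to Areg was S100a9 (0.57), to Spdef Acss1 (0.61) and to Gata3 Dennd2d (0.52).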

How the data were processed

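Total RNA of 73 mouse mammary tumours was sequenced as stranded, poly(A)-selected libraries, per the labels. The authors deposited a table of whole-number counts per gene symbol, made per the submitters' processing notes with cutadapt 2.10, STAR 2.7.3a and featureCounts 2.0.0 on mm10, and a table of normalized log2 values, which the authors deposited and which was tested with limma as an alternative: 36113 symbols are in both tables. The aligner's gene annotation and the strand setting of the counting are not given in the sources used here. Counts were tested with edgeR 4.0.16 in R 4.3.3 (TMM scaling, filterByExpr with a minimum count of 10, quasi-likelihood test, Benjamini-Hochberg over all genes tested, 0.05), in a fit of the 29 run 5625 libraries, and in a fit of 73 for comparisons with KB tumours. Alternatives were limma 3.58.1, DESeq2 1.42.0, other scaling and filters, and each run 5625 tumour left out in turn. Of the KB tumours, only KB2P 30 and KB1PM 8 were left out. The steps were tested on simulated data. Levels are CPM scaled by TMM over 73 libraries, and correlations used a prior count of 2. The members and the gene lists were chosen with earlier results of these data known. The genes named from a list are those past the threshold with the smallest adjusted p, at most 3 for each list and comparison, unless said otherwise. Gene positions are from GENCODE and promoter windows from RefSeq, on GRCm38.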

Additional observations from a re-analysis of the deposited data

Results flagged for a closer look

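Of the 36 combinations of a gene and a group of 4 to 10 tumours, 15 held a tumour that stood apart from the rest of its group by more than Dixon's critical value, which chance gives in about 1 of 20 groups of normally distributed values. CPM are skewed toward high values, and in all 15 the tumour was the highest of its group. In the KP adenocarcinomas, tumour 40 stood apart for 6 genes, with 84.8 CPM of Esr1, 236.7 CPM of Pgr, 924.9 CPM of Prlr, 246.7 CPM of Foxa1, 4.84 CPM of Spdef and 58.7 CPM of Areg, and 90.01A stood apart for Tnfsf11, with 19.8 CPM and 5.38 CPM in the nearest tumour. In KB1PM, tumour 11 had 51.0 CPM of Pgr, 166.7 CPM of Foxa1 and 20.9 CPM of Areg, with nearest tumours at 20.8, 53.7 and 4.94 CPM, and tumour 9 had 268.4 CPM of Prlr and 23.1 CPM of Spdef, with nearest tumours at 105.8 and 3.92 CPM. In the L1363P carcinosarcomas, tumour 54.1 had 29.9 CPM of Foxa1 and 5.00 CPM in the nearest tumour, and tumour 45 had 152.3 CPM of Aldh1a3 and 51.2 CPM in the nearest. In the sarcomatoid tumours, tumour 9.1 had 125.1 CPM of Tnfsf11 and 22.3 CPM in the nearest.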

How the results depend on the processing

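Of 1943 values of single genes under alternative settings, 1883 kept their side of the threshold (104 of them with a change of sign, past it in neither), 25 passed it no longer, 34 passed it only there and 1 reversed: Pgr in KP adenocarcinomas against KB2P, at -0.18 without tumour 40 (2.82 without tumour 39). With DESeq2, 5 members passed in sarcomatoid against adenocarcinoma (5676 of all genes, 4945 with edgeR) and 3 in sarcomatoid against carcinosarcoma. Within L1363P, 3 passed in carcinosarcoma against adenocarcinoma (1119 of all genes, 436 with edgeR). It called 1 member in KP carcinosarcoma against adenocarcinoma (184 and 0 genes), 1 in L1363P against KP adenocarcinomas (468 and 34) and 2 in the interaction (387 and 2). The slope gave 4 (2977 and 1222), the KB2P runs 1 (947 and 174) and L1363P adenocarcinomas against KB2P 0 (2254 and 1683). Where both counts are given, DESeq2 thus called more of all genes than edgeR. With limma the number of members past the threshold was 0 in KP adenocarcinomas against KB1P and KB1PM and 0 in L1363P adenocarcinomas against KB2P. It was 2 in sarcomatoid against carcinosarcoma and 1 in the slope. With carcinosarcomas of at least 75% epithelium, 0 passed against adenocarcinoma and 4 of 9 between sarcomatoid and carcinosarcoma. Without tumours 4, 17 and 90.01A, 3 passed between sarcomatoid and carcinosarcoma, with 5994 of all genes in place of 3468. Tumours of run 5625 were left out in turn, and of the KB tumours only KB2P 30 and KB1PM 8. This gave 2 to 5 members in KP adenocarcinomas against KB1P and KB1PM and 2 to 6 against KB2P (lowest without tumour 40). It gave 0 to 1 in L1363P adenocarcinomas against KB2P and 0 to 1 in carcinosarcoma against adenocarcinoma (lowest without 7.2). For sarcomatoid against adenocarcinoma it gave 2 to 4. For sarcomatoid against carcinosarcoma it gave 1 to 2 (highest without carcinosarcoma 17, a leave-out added after seeing the data). For the slope it gave 0 to 2 (highest without 6, also added after seeing the data). Pairs past the threshold numbered 6 over all tumours, 4 with a prior count of 8, 3 in run 5625 alone and 1 in the other runs alone, with fewer tumours each. Counts of all genes moved too: the slope gave 1222, 100 without carcinosarcoma 17 and 2977 with DESeq2, carcinosarcoma against adenocarcinoma 436, 6 when only the groups compared were fitted and 1119 at most, L1363P against KP adenocarcinomas 34, 0 and 468, KB1PM against KB1P 164, 1 and 334, KB1 groups against KB2P 2439 and 89, KB2P runs 174, 64 (without tumour 30) and 947, sarcomatoid against adenocarcinoma 4945 and 2490, sarcomatoid against carcinosarcoma 3468 and 5994, KP adenocarcinomas against KB1P and KB1PM 5045 and 3105, L1363P adenocarcinomas against these 924 and 505 and against KB2P 1683 and 863, and the interaction 2 and 387. Replicate numbers shared by KB groups were not taken to pair the tumours, since not every pair had r over 0.1: r was -0.18 to 0.14 in 8 pairs of KB1P and KB1PM (0 best with their own number), -0.14 to 0.48 in 5 of KB1P and KB2P (4 best) and -0.13 to 0.02 in 4 of KB1PM and KB2P (0 best). With the replicate number as a block, 89 genes passed for the KB1 groups against KB2P (317 in the same libraries without it), 1 for KB1PM against KB1P (1 without it, 164 in all libraries) and 0 members in either. Spdef counts were few, so that its folds are imprecise, and groups of 3 tumours limit the run 5625 comparisons.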
